A study of Sesamum indicum with 195 samples.

Results

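The genes described here are those of sesame (Sesamum indicum) roots that stood above their control after 4 h of waterlogging and, averaged over 20, 24 and 32 h, did so no longer. They were selected from a table of TPM (read counts divided by gene length and brought to a fixed total per sample) of 20271 genes in 195 root samples. For each gene, d was log2(mean TPM + 1) over the 3 waterlogged replicates minus that of the control with the same genotype and time. A gene was a member if d at 4 h was at least 1 in both genotypes, if the mean of d at 20, 24 and 32 h was below 0.3 in each genotype and if d averaged below 1 over all 7 times with a control up to 32 h. Of 18178 genes averaging 1 TPM or more, 17 met the rule. The values at these 7 times chose the genes, so they are given as a description without a test, and tests compared only the 111 samples that the rule did not use (the others add to the estimate of spread).

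Plants at the flowering stage stood in water up to above the soil surface for 36 h and were then drained for 12 h. In the susceptible genotype Ezhi No. 2 (EG) and the tolerant genotype ZZM2541 (R2G), roots were taken during waterlogging every 2 h from 2 to 24 h and at 28, 32 and 36 h, and during drainage every 2 h from 38 to 48 h. Unstressed control roots came from 4, 8, 12, 16, 20, 24, 32, 40, 44 and 48 h, and 1 group per genotype from 0 h, which the labels mark as control. EG plants labelled as wilting at 48 h, which the methods of the study describe as dead, formed a group of their own. Each of the 65 groups had 3 biological replicates, each a root of 1 plant from its own pot, so each genotype was represented by 1 line in 1 experiment.

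Waterlogged soil loses oxygen quickly, because gases move slowly through water, and the gaseous hormone ethylene builds up around the root. Plant roots answer within hours, with transcription factors that are stable only at low oxygen and with calcium and reactive oxygen signals, and many of the first transcripts to rise fall again while the stress goes on. The gene table of genome v1.0 used here places all 17 members and types each as protein-coding, but it holds no descriptive name, so no function is given to any of them. Markers of root or leaf tissue and a list of low-oxygen genes were not analysed here for the same reason. No sequence of a member is shown, since only the gene table was at hand.

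At 4 h, d was at least 1 for 1234 genes in EG, or 6.79% of those tested, and for 697 genes in R2G, or 3.83%, and 188 genes reached it in both. Of these 188, 171 were still above the limit of 0.3 between 20 and 32 h in at least 1 genotype, which left the 17 members. The member nearest to the limit at 4 h was LOC105167646, with d of 1.00 in EG and 1.86 in R2G. Just outside it was LOC105177987, with 1.54 in EG and 0.99 in R2G. At the later limit, LOC105155589 was just inside, with mean d of 0.30 in EG (0.297 before rounding) and 0.29 in R2G, and LOC105178572 just outside, with 0.31 and 0.26. Membership depended on single replicates, as the rule applied without replicate 1, 2 or 3 kept 9, 10 and 10 of the 17 genes. It depended more on scaling. The median d over all genes was -0.24 in EG and -0.26 in R2G at 4 h and -0.60 in EG and -0.51 in R2G at 20 h, so a gene that equals its control in TPM lies above most genes. With median-ratio scaling, in which a sample is divided by the median of its ratios to the mean profile of all samples, all 17 genes kept d of at least 1 at 4 h in both genotypes but only 6 stayed below the later limit in both, which were LOC105177924, LOC105159718, LOC105158557, LOC105179334, LOC105157862 and LOC105167682.

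In the 195 samples the TPM values summed to between 999096 and 999827, and no pair of columns was identical. TPM keeps no depth, so no counting error is given. The number of genes with at least 1 TPM was 17152 to 17480 in EG waterlogging and 17541 to 18046 in EG control at 4 h, and 16705 to 16802 in R2G waterlogging and 18051 to 18354 in R2G control at 4 h. These counts moved with the groups compared, and their part in the values below was not tested.

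The levels of the 17 genes spread widely. Their mean TPM over all samples had a median of 10.3, against 16.1 over all tested genes, with 7 genes below 10 TPM and 4 above 100 TPM. By far the most abundant was LOC105155589, on linkage group 2 from 7931978 to 7934395 of genome v1.0. At 4 h its TPM was 9307, 8059 and 7169.9 in EG waterlogging and 1845, 2784 and 2725 in EG control. In R2G the values were 5175, 4102 and 4078 TPM in waterlogging and 1543, 1399 and 1135 TPM in control. Waterlogged roots were above all control roots in both genotypes. A difference in whole roots can come from the number of cells of a type or from the RNA per cell, which cannot be told apart here. For LOC105155589, d was 1.74 in EG and 1.71 in R2G.

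LOC105179334, on a sequence that the table assigns to no linkage group, was the second most abundant member. Its TPM at 4 h was 1647, 1494 and 1456 in EG waterlogging and 408, 548 and 518 in EG control, with d of 1.64. In R2G it was 1008, 851 and 768 TPM in waterlogging and 295, 468 and 237 TPM in control, with d of 1.39. LOC105160805, on linkage group 4 from 12033819 to 12039754, reached 363, 368 and 229.7 TPM in EG waterlogging and 93.8, 111 and 141 TPM in EG control. For both genes the 3 waterlogged roots lay above the 3 control roots in each genotype. In R2G, LOC105160805 had 165, 182 and 212 TPM in waterlogging and 77.0, 122 and 75.4 TPM in control, the smaller of its d values (1.02, against 1.47 in EG).

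The largest d at 4 h, averaged over the genotypes, was that of LOC105157719, on linkage group 3 from 8576146 to 8581576. It had 42.5, 23.4 and 35.7 TPM in EG waterlogging and 2.42, 1.86 and 3.02 TPM in EG control, with d of 3.35. In R2G it had 22.1, 27.0 and 15.5 TPM in waterlogging and 6.45, 6.52 and 8.68 TPM in control, with d of 1.46. The EG control of 4 h was the lowest of the 10 EG control means of this gene. LOC105169253, on linkage group 8 from 18319663 to 18327021, had 43.0, 48.7 and 42.9 TPM in EG waterlogging and 6.51, 4.47 and 4.75 TPM in EG control. In R2G its values were 15.1, 11.1 and 17.9 TPM in waterlogging and 4.70, 6.05 and 3.76 TPM in control. The groups did not overlap in either genotype, and d was 2.88 in EG and 1.43 in R2G. LOC105177924, on linkage group 2 from 2615647 to 2617428, had 21.2, 25.5 and 29.6 TPM in EG waterlogging and 3.42, 1.65 and 6.90 TPM in EG control, and lower levels in R2G, with 6.95, 2.99 and 10.2 TPM in waterlogging and 1.08, 1.63 and 0.668 TPM in control.

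In R2G the largest d at 4 h was that of LOC105177138, on linkage group 15 from 349795 to 353205. It had 428, 345 and 252 TPM in R2G waterlogging and 43.2, 99.6 and 22.5 TPM in R2G control. In EG it had 205, 154 and 140.4 TPM in waterlogging and 68.3, 52.4 and 52.8 TPM in control, so d was 1.51 in EG and 2.61 in R2G. This was 1 of 4 members with the larger d in R2G, together with LOC105158557, LOC105167646 and LOC105174543, whereas d was larger in EG for 13. Over all tested genes, d of at least 1 at 4 h was also more frequent in EG, at 6.79%, than in R2G, at 3.83%. These values entered the rule, so the split between genotypes is a description.

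In 4 of the other members, LOC105159718, LOC105167682, LOC105158557 and LOC105171680, as well as in the low-level LOC105157862, the control of 4 h lay at least 0.6 below 0 h on the log2 scale in both genotypes. By any amount, the control of 4 h was below 0 h for 8 of the 17 members in EG and 10 in R2G. Among all tested genes this held for 69.1% in EG and 67.4% in R2G, so it is no trait of the members. LOC105159718, on linkage group 1 from 8902819 to 8904916, had 32.1, 36.4 and 48.5 TPM in EG waterlogging and 7.56, 6.25 and 4.25 TPM in EG control at 4 h, and 22.8, 30.9 and 24.9 TPM in EG at 0 h. In R2G it had 18.1, 11.6 and 9.91 TPM in waterlogging and 5.91, 4.94 and 7.01 TPM in control at 4 h, and 28.7, 22.1 and 22.8 TPM at 0 h. Waterlogged R2G roots at 4 h were thus above their control but below the roots of 0 h. LOC105167682, on linkage group 8 from 3727002 to 3731568, had 86.8, 61.2 and 90.1 TPM in EG waterlogging, 34.6, 35.2 and 30.6 TPM in EG control and 101, 77.9 and 79.7 TPM at 0 h. In R2G its means were 80.5 ± 20.4 TPM in waterlogging, 38.7 ± 1.34 TPM in control and 84.7 ± 21.0 TPM at 0 h (SD, n = 3). In EG, LOC105159718 was higher in waterlogged roots at 4 h than at 0 h. The control of 4 h was below 0 h, in log2(mean TPM + 1), by 1.34 in EG and 1.11 in R2G for LOC105167682 and by 1.95 and 1.88 for LOC105159718. LOC105158557, on linkage group 3 from 16157292 to 16164117, was also lower in the 4 h control than at 0 h, by 0.62 in EG and 0.79 in R2G, but waterlogged roots at 4 h exceeded both in each genotype. It had 316, 221 and 207 TPM in R2G waterlogging, 70.1, 85.3 and 64.7 TPM in R2G control and 123, 124 and 135 TPM in R2G at 0 h. In EG its means were 234 ± 101 TPM in waterlogging, 81.1 ± 16.2 TPM in control and 125 ± 15.9 TPM at 0 h (SD, n = 3). LOC105171680, on linkage group 10 from 2214870 to 2219420, was the only member whose replicates overlapped at 4 h. In R2G it had 3.32, 4.48 and 8.49 TPM in waterlogging and 1.64, 4.13 and 0.801 TPM in control, and in EG it had 13.3, 22.4 and 18.5 TPM in waterlogging and 12.7, 5.27 and 7.24 TPM in control. At 0 h it had 5.87, 5.70 and 38.5 TPM in EG and 17.4, 9.58 and 21.4 TPM in R2G.

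The remaining members were LOC105174543, LOC105174169, LOC105172403, LOC105158341, LOC105167646 and LOC105157862. LOC105174543, on linkage group 11 from 14568109 to 14572620, had 83.4 ± 19.0 TPM in EG waterlogging and 41.1 ± 15.0 TPM in EG control (SD, n = 3). LOC105174169, on the same linkage group from 12415839 to 12421695, had 96.6 ± 27.7 TPM in EG waterlogging and 43.8 ± 9.65 TPM in EG control (SD, n = 3). The other 4 were low. LOC105172403, the longest member with 15358 bases on linkage group 10, had 21.1 ± 5.71 TPM in EG waterlogging and 5.57 ± 2.78 TPM in EG control (SD, n = 3). LOC105158341 had 6.65 ± 1.07 TPM in EG waterlogging and 1.57 ± 0.61 TPM in EG control, and LOC105167646 had 5.85 ± 1.45 and 2.42 ± 0.465 TPM in the same groups. LOC105157862, on linkage group 1 from 609264 to 612720, had 3.36, 4.54 and 2.42 TPM in EG waterlogging and 0.38, 0.103 and 2.12 TPM in EG control. At such levels log2(TPM + 1) understates fold changes, and 1 replicate carries much of a mean. In R2G, d of these 6 genes at 4 h ranged from 1.01 for LOC105157862 to 1.86 for LOC105167646. The control of 4 h was the lowest of the 10 EG control means for 5 members, which were LOC105157719, LOC105159718, LOC105158341, LOC105157862 and LOC105167682, and of the 10 R2G control means for 3, which were LOC105177138, LOC105158341 and LOC105157862. The rule favours genes with a low control at 4 h, and no share over all genes is given, so nothing is read from these counts.

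**Figure D1:**
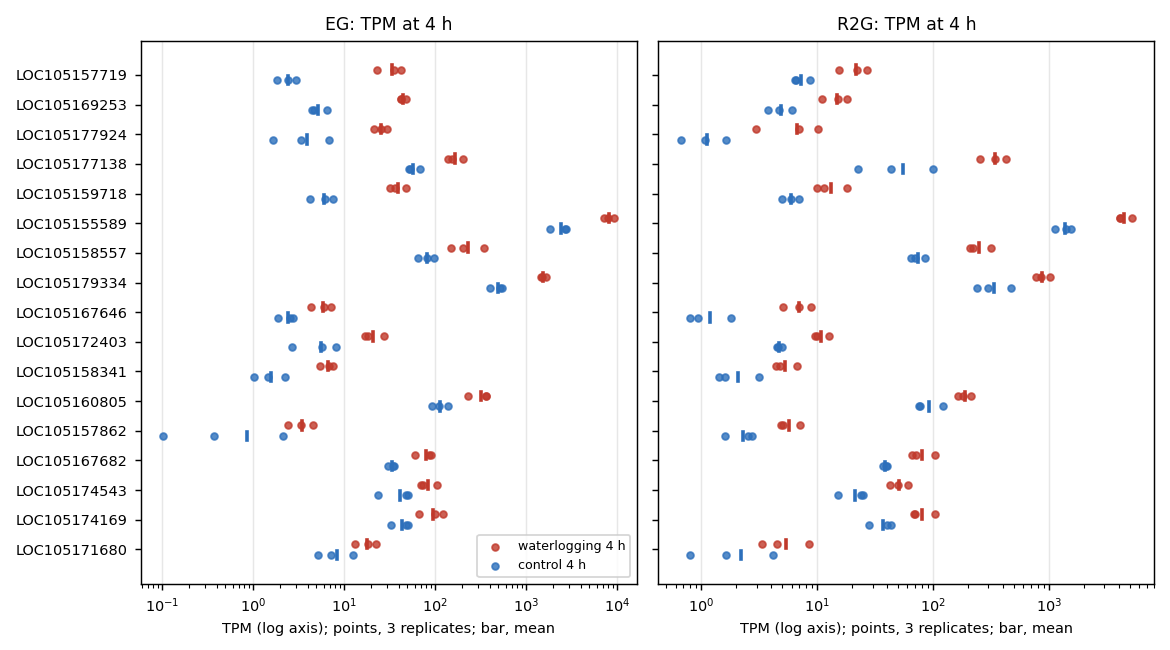
TPM of the 17 genes at 4 h in EG (left) and R2G (right), on a log axis, with 3 replicates (points) and their mean (bar) for waterlogging (red, upper row of each gene) and control (blue, lower row). The waterlogged replicates lay above all control replicates for 17 genes in EG and 16 in R2G, the exception being LOC105171680.

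Over all 18178 genes, the waterlogged replicates lay above all control replicates at 4 h for 19.8% in EG and 13.4% in R2G. For the 17 members this separation follows from the rule, and nothing is read from it.

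Against the control of the same time, d was smaller at 8 h than at 4 h for most members. The median d over the 17 genes at 4, 8, 12, 16, 20, 24 and 32 h was 1.51, 0.20, -0.26, -0.15, -0.02, 0.22 and -0.47 in EG and 1.22, 0.17, -0.56, 0.00, 0.03, -0.01 and -0.18 in R2G. Over all tested genes the median d at these times was -0.24, -0.34, -0.11, -0.59, -0.60, -0.46 and -0.39 in EG. In R2G it was -0.26, -0.25, -0.33, -0.48, -0.51, -0.49 and -0.28. The median of the members was above that of all genes except at 12 h in both genotypes and at 32 h in EG. At 8 h only LOC105177138 had d of at least 1, in both genotypes (2.13 in EG and 1.97 in R2G). At 12 h, 13 members in EG and 12 in R2G were below their control. So were most tested genes, with a median d of -0.11 in EG and -0.33 in R2G. The lowest member was LOC105177924 in EG, where d was -3.32. Its TPM was then 0.183, 0.319 and 0.124 in EG waterlogging and 1.83, 7.84 and 23.6 in EG control. The rule's later limit applied to a mean of 3 times, and that mean did not always describe each of them. LOC105155589 in EG had d of 1.93, 2.20 and 1.58 at 16, 20 and 24 h and of -2.89 at 32 h. Its mean TPM in EG at 20 h was 1773 ± 104 in waterlogging and 384 ± 41.5 in control, and at 32 h 349 ± 68.8 in waterlogging and 2595 ± 219 in control (SD, n = 3). This gene was therefore above its control at 20 and 24 h and below it at 32 h, and its control moved by 2.99 on the log2 scale over the 10 control times in EG. Apart from LOC105155589, no member had d of at least 1 at 20, 24 or 32 h in either genotype, whereas values of -1 or less occurred in EG for LOC105177924, LOC105179334, LOC105172403, LOC105158341 and LOC105174543 at 32 h and for LOC105159718 and LOC105158557 at 20 h. At 32 h the control of the members was high, which the later limit of the rule favours, so this is a description. The median of log2(mean TPM + 1) over the members was 4.61 in the EG control and 4.24 in the R2G control at 32 h. Over the control times from 4 to 24 h it was 2.98 to 3.82 in EG and 2.94 to 3.71 in R2G. Over all tested genes the control median at 32 h was 4.17 in EG and 4.10 in R2G. From 4 to 24 h that median was 3.98 to 4.34 in EG and 4.16 to 4.27 in R2G.

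**Figure D2:**
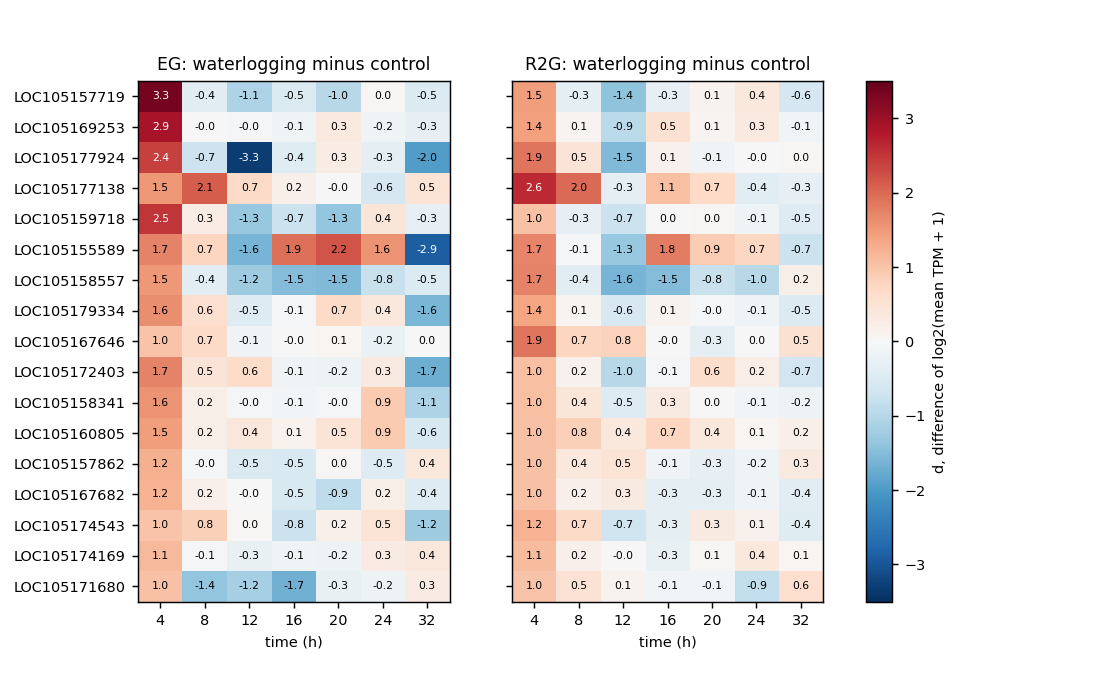
Waterlogging minus control at the same time, d, in log2(mean TPM + 1), for the 17 genes (rows) at the 7 times with a control (columns) in EG (left) and R2G (right). Red is above and blue below the control, every gene is at 1 or more at 4 h, and LOC105155589 in EG turns from 2.2 at 20 h to -2.9 at 32 h.

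The word transient means only that these genes met the limits of the rule, which used the times that have a control. Even at those times it does not describe every member. For LOC105155589, d at 16 h was 1.93 in EG and 1.79 in R2G, above its 1.74 and 1.71 at 4 h. The 8 waterlogging times without a control (2, 6, 10, 14, 18, 22, 28 and 36 h) were not used by the rule. In R2G, 7 members had a higher mean at 2 h than at 4 h, 12 at 6 h and 7 at 22 h. In EG, 4 did so at 2 h, 2 at 6 h and 4 at 18 h, and the median over the members was below that of 4 h at all 8 times. The rule favours high waterlogging values at 4 h, and no share over all genes is given, so these counts are a description. In R2G the median of log2(mean TPM + 1) over the 17 genes was 4.49 at 4 h, 5.58 at 6 h, 3.43 at 8 h, 5.03 at 10 h and 2.91 at 12 h of waterlogging. In EG it was 5.52 at 4 h, 4.65 at 6 h, 3.30 at 8 h, 4.66 at 10 h and 3.40 at 12 h. The median went up and down in this way until 24 h, and each of 10, 14, 18 and 22 h was above the times before and after it in both genotypes. The mean over 10, 14, 18 and 22 h exceeded that over 8, 12, 16, 20 and 24 h for 17 of 17 members in EG, by a median of 0.92 on the log2 scale, and for 12 of 17 in R2G, by a median of 0.38. Over all tested genes it did so for 53.7% in EG and 53.7% in R2G, with medians of 0.04 and 0.03. The later limit of the rule favours low waterlogging values at 20, 24 and 32 h. Its limit on the mean over all 7 times, the only one to include 8, 12 and 16 h, removed no further gene. No test was run, as the values at 8, 12, 16, 20 and 24 h entered the rule, so this is a description. The number of genes with at least 1 TPM was slightly higher at 10, 14, 18 and 22 h (median 16567 in EG and 16627.5 in R2G) than at 8, 12, 16, 20 and 24 h (16278 in EG and 16390 in R2G), and its part in the pattern was not tested.

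**Figure D3:**
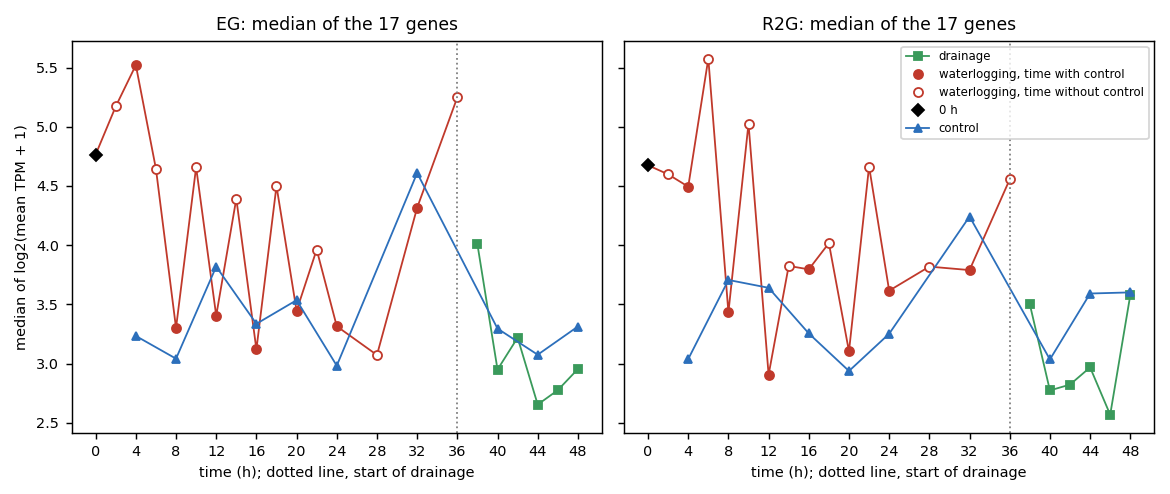
Median over the 17 genes of log2(mean TPM + 1) against time in EG (left) and R2G (right): red circles are waterlogging (filled where a control was taken at that time, open where not), the diamond is 0 h, green squares are drainage and blue triangles control, and the open circles at 10, 14, 18 and 22 h stand above their filled neighbours in both genotypes.

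For some members this course was steep. LOC105169253 in R2G had 43.1, 51.5 and 45.5 TPM at 6 h, 9.22, 8.84 and 7.98 TPM at 8 h, 30.2, 24.9 and 39.7 TPM at 10 h and 5.89, 5.52 and 2.38 TPM at 12 h of waterlogging, so that neighbouring times did not overlap. LOC105155589 in EG had 902, 671 and 636 TPM at 12 h, 3795, 5183 and 6067 TPM at 14 h and 1349.8, 1316 and 1046 TPM at 16 h. Over the 15 waterlogging times, the highest mean of a member was at 4 h for 9 of 17 genes in EG and 3 in R2G, at 2 h for 2 and 2, and at 6 h for 1 and 7. Later maxima were at 10 h for LOC105158341 in both genotypes and LOC105160805 in R2G, at 18 h for LOC105172403, LOC105160805 and LOC105174543 in EG, at 22 h for LOC105157862 in R2G, and at 36 h for LOC105171680 in both genotypes and LOC105159718 in R2G. As the rule favours a maximum at 4 h, nothing is read from the number of members that had one.

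**Figure D4:**
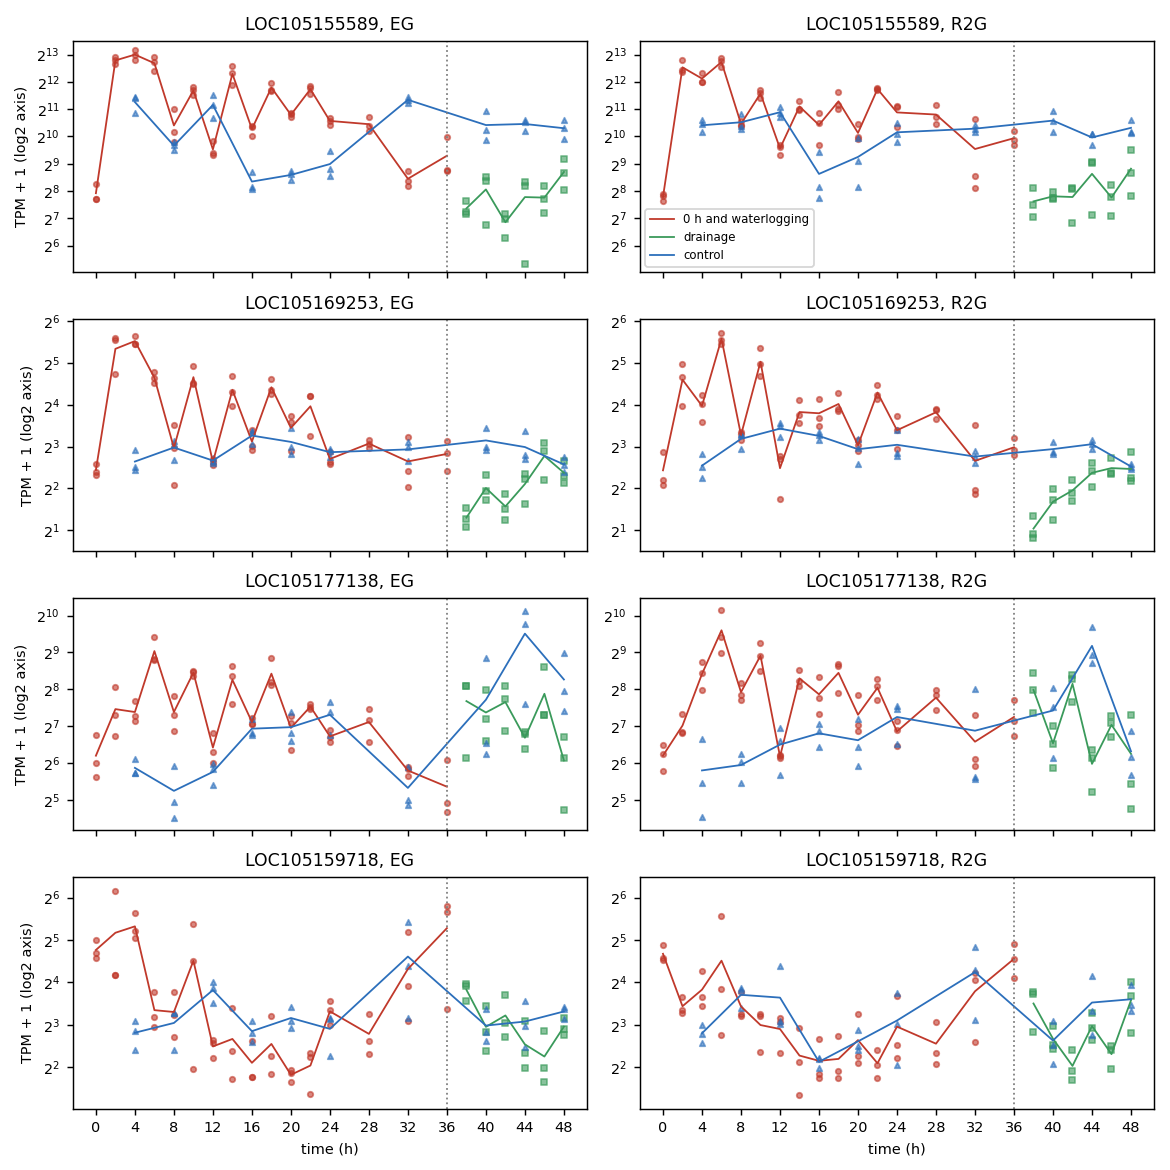
TPM + 1 on a log2 axis against time for 4 members in EG (left) and R2G (right), with 3 replicates per time (points) and the line through their means; red is 0 h and waterlogging, green drainage and blue control, and the dotted line marks 36 h. LOC105155589 and LOC105169253 are higher at 2 h than at 0 h, go up and down during waterlogging and are lower at 38 h than at 36 h. LOC105177138 has its highest waterlogging mean at 6 h, and LOC105159718 is high at 0 h and again at 36 h.

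Whether the genes had already risen after 2 h was tested against 0 h, in samples that the rule did not use (limma on log2(TPM + 1) in one model of all samples, over both genotypes, 6 against 6 samples). Calls needed a Benjamini-Hochberg adjusted p under 0.05 over all tested genes together with a log2 fold change of 1 or more in size. Of the 17 members, 8 were called higher at 2 h, against 6.3% of all tested genes, and 0 were called lower, against 23.1%, with 2 of the members negative at an unadjusted p under 0.05. In EG alone 8 were called higher, against 6.8% of all genes, and in R2G alone 7, against 6.67%, while LOC105159718 was called lower in R2G, where 22.6% of all genes were. The median log2 fold change was 0.81 over the members and -0.51 over all genes. Over all genes 1145 were called higher and 4201 lower, and after median-ratio scaling 1998 and 1669, when 10 members were called higher. LOC105155589 rose to 6383, 7713 and 7073 TPM in EG at 2 h, against 207, 209.6 and 307 TPM at 0 h, and in R2G to 7066, 5467 and 5226 TPM, against 239.5, 224 and 196 TPM. Its log2 fold change over both genotypes was 4.81 (SE 0.30, adjusted p = 7.5e-31 from limma). LOC105169253 rose to 25.4, 45.5 and 47.1 TPM in EG at 2 h, against 5.04, 4.28 and 4.00 TPM at 0 h, and its log2 fold change was 2.50 (SE 0.19, adjusted p = 3.5e-24 from limma). LOC105167646 rose to 13.8, 13.9 and 8.57 TPM in EG, against 2.14, 3.09 and 0.61 TPM at 0 h, with a log2 fold change of 2.26 (SE 0.20, adjusted p = 2.2e-20 from limma), and at 6 h it was back at 1.69, 2.00 and 1.88 TPM. For LOC105177924 the log2 fold change was 2.56 (SE 0.33, adjusted p = 1.5e-11 from limma), for LOC105160805 1.87 (SE 0.14, adjusted p = 1.8e-25 from limma) and for LOC105179334 1.74 (SE 0.18, adjusted p = 4.5e-16 from limma). The other 2 called genes were LOC105174169, with 1.08, and LOC105177138, with 1.03, and each lost its call when 1 replicate was left out (0.88 without replicate 1 for LOC105174169 and 0.94 without replicate 3 for LOC105177138).

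No control was taken at 2 h, so waterlogging and time of day cannot be told apart in this comparison, nor in the other comparisons between times given here. Unstressed roots also changed between 0 and 4 h. The control of 4 h was above 0 h by 3.34 on the log2 scale in EG and 2.62 in R2G for LOC105155589, by 0.71 and 0.44 for LOC105160805, and by 0.20 and 0.11 for LOC105169253. LOC105155589 was therefore much higher at 4 h than at 0 h without waterlogging as well, whereas LOC105169253 was nearly level. Over the members the median change in control was 0.16 in EG and -0.05 in R2G, against -0.27 and -0.26 over all genes.

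The 9 members not called at 2 h against 0 h included LOC105157719, LOC105159718 and LOC105158557, although they stood above their control at 4 h. Of these, LOC105159718 in R2G was still below its level of 0 h at 4 h of waterlogging. LOC105158557 had 50.2, 75.8 and 92.7 TPM in EG at 2 h, against 109, 141 and 125 TPM at 0 h, and averaged 234 ± 101 TPM at 4 h (SD, n = 3). LOC105159718 in R2G had 11.7, 9.12 and 8.71 TPM at 2 h, against 28.7, 22.1 and 22.8 TPM at 0 h, a log2 fold change of -1.24 (SE 0.50, adjusted p = 0.025 from limma) in that genotype. The change from 0 to 2 h differed between EG and R2G for 1 member, LOC105157719, against 12.1% of all tested genes. It had 7.15, 10.3 and 29.8 TPM at 2 h and 3.97, 5.41 and 4.20 TPM at 0 h in EG, and 4.09, 4.11 and 3.03 TPM at 2 h and 6.00, 5.26 and 3.48 TPM at 0 h in R2G. The difference of the changes, EG minus R2G, was 1.67 (SE 0.48, adjusted p = 0.0066 from limma), but the call was lost without replicate 3, when it was 1.14 (adjusted p = 0.1 from limma). The call was also lost with only the compared samples.

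The course within waterlogging was tested at times that the rule did not use, as the mean of 2 and 6 h minus that of 28 and 36 h (12 against 12 samples). By limma 7 members were called higher early, against 14.9% of all tested genes, and 0 higher late, against 4.12%, with 1 at an unadjusted p under 0.05. The median log2 difference was 0.84 over the members, 16 of which were positive, and 0.24 over all genes, of which 65.3% were positive. Over all genes 2710 were called higher early and 749 higher late, and after median-ratio scaling 2030 and 1158, with 6 members called higher. LOC105155589 changed most, with means of 7056 ± 665 and 6571 ± 1161 TPM at 2 and 6 h and 1397 ± 254 and 626 ± 342 TPM at 28 and 36 h in EG (SD, n = 3). Its log2 difference was 2.60 (SE 0.21, adjusted p = 1.6e-22 from limma). For LOC105179334 it was 2.00 (SE 0.13, adjusted p = 3e-30 from limma), for LOC105177924 1.92 (SE 0.24, adjusted p = 1.2e-12 from limma) and for LOC105169253 1.85 (SE 0.13, adjusted p = 7.9e-26 from limma). The other called members were LOC105177138 with 1.41, LOC105167646 with 1.31 and LOC105160805 with 1.07. LOC105158341 was the single member with a negative value, of -0.29 (SE 0.10, adjusted p = 0.011 from limma), and was not called.

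The difference between early and late differed in turn between the genotypes for 2 members, against 6.11% of all genes in this test, which was added after the profiles had been seen. For LOC105179334 it was 2.61 in EG and 1.40 in R2G, and EG minus R2G was 1.20 (SE 0.25, adjusted p = 0.00027 from limma). Its TPM at 36 h was 245, 105 and 82.5 in EG and 209, 341 and 307 in R2G. For LOC105157719 EG minus R2G was 1.36 (SE 0.34, adjusted p = 0.002 from limma). Without replicate 3 both calls were lost, at 0.87 for LOC105179334 and 0.60 for LOC105157719, and 2 other members were called, LOC105167646 higher with 1.03 and LOC105158557 lower with -1.42. LOC105157719 also lost its call with only the compared samples.

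The median level of the members was high again at 36 h, although most members were below their early level at that time. Early minus 36 h had a median log2 difference of 0.99 over the members, against 0.35 over all genes. The difference was positive for 13 members and negative for LOC105159718, LOC105158557, LOC105158341 and LOC105171680. Because of the high median level, the early times were also set against 10, 14, 18 and 22 h (12 against 24 samples). This comparison was likewise added after the profiles had been seen, and it shares the early samples with that of early and late waterlogging. By limma 6 members were called higher early, against 5.2% of all genes, and 0 lower, against 0.732%, with 1 at an unadjusted p under 0.05. These were LOC105158557 with a log2 difference of 1.60 (SE 0.14, adjusted p = 8.5e-19 from limma), LOC105177924 with 1.58 (SE 0.20, adjusted p = 2.6e-11 from limma), LOC105159718 with 1.39 (SE 0.22, adjusted p = 1.7e-08 from limma), LOC105171680 with 1.23, LOC105155589 with 1.03 and LOC105179334 with 1.03. After median-ratio scaling the last 2 were at 0.90 and 0.89 and were no longer called. Without replicate 1 LOC105155589 was just under the limit, and without replicate 2 LOC105179334 was at 0.93. In EG, LOC105158557 had 196 ± 75.5 TPM at 6 h, 30.5 ± 6.10 TPM at 18 h and 172 ± 10.2 TPM at 36 h (SD, n = 3). LOC105160805, in contrast, had 289 ± 25.7 TPM at 6 h and 451 ± 5.69 TPM at 18 h in EG, and its log2 difference was -0.10 (SE 0.08, adjusted p = 0.28 from limma). The genotypes differed in this comparison for LOC105174543 and LOC105172403, against 0.979% of all genes, with EG minus R2G at -1.47 (SE 0.34, adjusted p = 0.0044 from limma) for LOC105174543 and at -1.05 (SE 0.32, adjusted p = 0.039 from limma) for LOC105172403. Without replicate 3 neither was called (adjusted p = 0.22 for LOC105174543 and 0.21 for LOC105172403 from limma), and LOC105172403 also lost its call without replicate 1 or 2, with only the compared samples and after median-ratio scaling. In EG both genes were highest at 18 h, LOC105174543 with 96.4, 124 and 65.9 TPM, against 23.1, 22.1 and 27.2 TPM in R2G. LOC105172403 had 24.5, 28.5 and 11.9 TPM in EG and 4.44, 3.79 and 4.31 TPM in R2G at 18 h.

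Between EG and R2G themselves, at 2 and 6 h of waterlogging (6 against 6 samples), limma called 0 of 17 members, against 3.44% of all tested genes, while 4 members had an unadjusted p under 0.05, as did 31.8% of all genes. The log2 difference of EG minus R2G ranged from -0.81 to 0.69 over the members. The highest was that of LOC105157719, at 0.69 (SE 0.24, adjusted p = 0.029 from limma), which missed the limit of 1. Without replicate 1, LOC105157862 was called lower in EG. For LOC105169253 the order of the genotypes differed between these times. Its means in EG were 39.4 ± 12.1, 44.9 ± 3.30 and 24.0 ± 2.25 TPM at 2, 4 and 6 h, and in R2G 23.2 ± 7.98, 14.7 ± 3.45 and 46.7 ± 4.37 TPM (SD, n = 3).

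**Figure D5:**
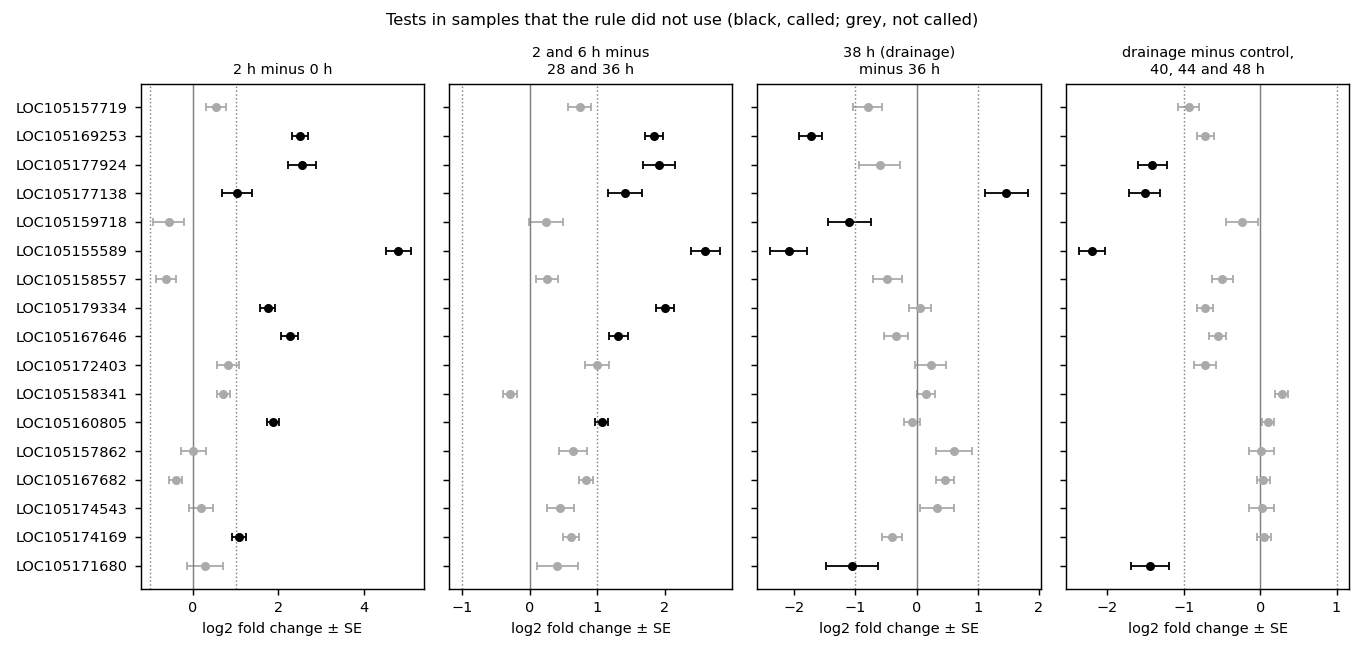
Log2 fold changes with standard errors from limma for the 17 genes (rows) in 4 comparisons of samples that the rule did not use, both genotypes together, with called genes in black, the others in grey and dotted lines at 1 and -1. LOC105155589 is highest at 2 h against 0 h (4.81) and lowest in drainage against control (-2.20).

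In the first 2 h of drainage (38 h against 36 h, 6 against 6 samples), 4 members were called lower by limma, against 4.55% of all genes, and 1 was called higher, against 20.7%. The samples of 36 h also entered the comparison of early with late waterlogging. The median log2 fold change was -0.33 over the members and 0.34 over all genes. Over all genes 3754 were called higher and 827 lower, and after median-ratio scaling 2044 and 1915, with 0 members higher and 5 lower. LOC105155589 fell to 149.9, 142 and 199.7 TPM in EG at 38 h, against 1021, 421 and 437 TPM at 36 h, and in R2G to 278, 179 and 131 TPM, against 833, 939 and 1165 TPM. The groups did not overlap in either genotype, and the log2 fold change was -2.09 (SE 0.30, adjusted p = 4.4e-10 from limma). LOC105169253 fell to 1.52, 0.877 and 0.771 TPM in R2G at 38 h, against 6.55, 8.18 and 5.99 TPM at 36 h, with a log2 fold change of -1.73 (SE 0.19, adjusted p = 7.7e-15 from limma) over both genotypes. LOC105159718, with -1.10 (SE 0.35, adjusted p = 0.0042 from limma), and LOC105171680, with -1.05 (SE 0.43, adjusted p = 0.024 from limma), were no longer called without replicate 2 or without replicate 3, when 2 members were called lower. The gene that rose was LOC105177138, with 272, 70.4 and 272 TPM in EG at 38 h, against 66.8, 24.7 and 29.5 TPM at 36 h, and a log2 fold change of 1.47 (SE 0.35, adjusted p = 0.00014 from limma) over both genotypes. In R2G it had 345, 251 and 163 TPM at 38 h, against 141, 107 and 208 TPM at 36 h. The log2 fold change was 2.22 (SE 0.50, adjusted p = 8.2e-05 from limma) in EG and 0.72 (SE 0.50, adjusted p = 0.21 from limma) in R2G, where it was not called. After median-ratio scaling the value over both genotypes was 0.99 and under the limit of 1. The change differed between EG and R2G for 0 members by limma, against 0.297% of all genes, although 5 had an unadjusted p under 0.05, as did 11.7% of all genes.

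During drainage at 40, 44 and 48 h, where controls exist, 4 members were called lower than control, against 9.68% of all genes, and 0 higher, against 2.33%, with 1 higher at an unadjusted p under 0.05 (18 against 18 samples, limma). The median log2 fold change was -0.56 over the members, 11 of which had an unadjusted p under 0.05, and 0.00 over all genes, of which 73.4% had one. LOC105155589 was furthest below its control. At 40 h its TPM was 363, 108 and 326 in EG drainage and 1212, 923 and 1964 in EG control, and 249, 209 and 211 in R2G drainage and 1155, 1938 and 1498 in R2G control. Its log2 fold change over the 3 times was -2.20 (SE 0.17, adjusted p = 1.2e-23 from limma). LOC105177138 followed with -1.51 (SE 0.20, adjusted p = 6.2e-11 from limma), which came mostly from 44 h, where its TPM was 83.3, 114 and 110.4 in EG drainage and 1119, 195 and 871 in EG control. At 40 h alone this gene was not called, at -0.36 (SE 0.35, adjusted p = 0.39 from limma). LOC105171680 had a log2 fold change of -1.44 (SE 0.25, adjusted p = 1.1e-07 from limma) and LOC105177924 of -1.41 (SE 0.19, adjusted p = 8.3e-11 from limma). LOC105177924 in R2G was near 0 throughout drainage, with 0.126, 0.354 and 0.544 TPM in drainage and 1.29, 0.901 and 0.626 TPM in control at 48 h. The members closest to their control were LOC105167682 with 0.04, LOC105157862 with 0.02 and LOC105174543 with 0.02, none called. The effect of drainage differed between EG and R2G for 0 members by limma, also at an unadjusted p under 0.05, against 0.259% of all genes by the call.

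In wilting EG plants at 48 h, 2 members were called higher than in surviving plants (3 against 3 samples), against 2.36% of all genes, and 0 lower, against 2.67%, with 2 lower at an unadjusted p under 0.05 (limma). The surviving plants were also part of the drainage comparison. LOC105177138 had 318, 92.0 and 143 TPM in wilting plants and 105, 69.2 and 25.8 TPM in surviving plants, a log2 fold change of 1.47 (SE 0.50, adjusted p = 0.03 from limma). LOC105174543 had 29.4, 94.7 and 53.9 TPM in wilting plants and 25.5, 18.9 and 25.4 TPM in surviving plants, a log2 fold change of 1.17 (SE 0.40, adjusted p = 0.029 from limma). Both calls used a spread estimated from all samples, and 0 members were called with only the 6 samples compared, without replicate 2 or without replicate 3.

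The members did not form 1 pattern. Across the 37 conditions that the rule did not use, Pearson's correlation of log2(mean TPM + 1) between 2 members ranged from -0.53 to 0.93 over 136 pairs, with a median of 0.30. These points share time series and libraries, so the correlations are a description. The most alike pair was LOC105155589 and LOC105169253, at 0.93, followed by LOC105155589 and LOC105179334, at 0.89, and LOC105169253 and LOC105179334, at 0.86. All 10 pairs above 0.7 were among these 3 genes, LOC105160805, LOC105157719 and LOC105177924. In 27 pairs the correlation was below 0. The genes were spread over the genome. The nearest to each other were LOC105167646 and LOC105167682 on linkage group 8, whose starts lay 326049 bases apart, followed by LOC105158557 and LOC105158341 on linkage group 3, at 2149274 bases. Their gene length, introns included, ranged from 1782 to 15358 bases with a median of 4551, against 3615 over the tested genes.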

How the data were processed

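Root RNA of 195 samples was sequenced, 3 replicates in each of 65 groups. Per the labels and the methods of the study, the authors trimmed reads with Trimmomatic 0.32, checked them with FastQC, aligned them with STAR to the sesame genome v1.0, kept uniquely aligned reads and deposited TPM per gene. TPM keeps no depth, so no counting interval or floor is given, and the precision rests on the spread between the 3 plants of a group.

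All 195 columns matched a sample title. Values were used as log2(TPM + 1) for 18178 genes with a mean of at least 1 TPM. One limma 3.58.1 model (R 4.3.3, lmFit and eBayes with a trend) held the 65 groups, and p-values were adjusted by Benjamini-Hochberg over all tested genes. All 17 members are described by name. The members, lists and tests were chosen with earlier results of these data known. Positions come from the RefSeq gene table of assembly S_indicum_v1.0. Protein signatures, promoter motifs, leaf markers and low-oxygen genes were not analysed here. On simulated data for 2 h against 0 h, 199 of 200 genes given a log2 change of 2 were recovered among the 18178, but 180 of 200, with 11 false calls, for the difference between genotypes in that change, and 182 of 200 genes given a change of 1.5 for wilting plants. The other settings tried were median-ratio scaling, a pseudocount of 0.1, all genes without the filter, a fit on the compared samples alone, a replicate block and each replicate left out.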

Additional observations from a re-analysis of the deposited data

Results flagged for a closer look

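In 4 genes a change over time differed between EG and R2G by the limma test of the difference itself, and each value is EG minus R2G on the log2 scale. LOC105157719 differed in the change from 0 to 2 h, by 1.67 (7.15, 10.3 and 29.8 TPM in EG and 4.09, 4.11 and 3.03 TPM in R2G at 2 h), and again in early minus late waterlogging, by 1.36, a comparison that shares the samples of 2 h. LOC105179334 differed in early minus late waterlogging by 1.20, with 245, 105 and 82.5 TPM in EG and 209, 341 and 307 TPM in R2G at 36 h. LOC105174543 and LOC105172403 differed in early waterlogging minus 10 to 22 h, by -1.47 and -1.05. Without replicate 3, none of these 5 differences was called by limma, and LOC105172403 was not called without replicate 1 or 2 either. With only the compared samples, neither difference of LOC105157719 was called, nor that of LOC105172403, which was also lost after median-ratio scaling. With 3 samples in a group, single samples were not screened for lying far from the others.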

How the results depend on the processing

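Of 296 values of single genes recomputed under the alternatives, 264 stayed on the same side of the threshold in the same direction, 32 were no longer called and 0 reversed. Of 37 calls, 22 held under all alternatives run. Of 214 counts of members, 193 were within 1.5 times. After median-ratio scaling 6 members met the rule (which then took 12 genes), 0 rose in the first 2 h of drainage, 1 was higher in wilting plants and 1 differed between genotypes in early waterlogging minus 10 to 22 h. With only the compared samples 0 were higher in wilting plants and 0 differed between genotypes in the change from 0 to 2 h, and 1 in early waterlogging minus 10 to 22 h. Leaving out each replicate, the rule kept 9 to 10 members, the call of the difference from 0 to 2 h numbered 0 to 1, that of EG against R2G lower 0 to 1, that of the first 2 h of drainage lower 2 to 4, that of wilting plants higher 0 to 1, that of the genotype difference in early minus late waterlogging 1 to 2 higher and 0 to 1 lower, and in early minus 10 to 22 h 0 to 2 lower. With a replicate block, 8 members were higher at 2 h, 7 higher early than late, 4 lower in drainage and 2 higher in wilting plants, and no count of members called changed. Deviations of samples with the same number correlated at -0.002 on average over 63 pairs, with 20 pairs over 0.1. Between 38 and 36 h the mean was 0.14, with 4 of 6 pairs over 0.1. The study used a blocking design, but no source used here ties the numbers to blocks. Median-ratio scaling moved the median of all genes from -0.51 to -0.04 at 2 h and from 0.34 to -0.03 at 38 h, and the cause of these shifts was not tested. The tests of drainage at single times, which were added after seeing the data, called 3, 5 and 4 members lower at 40, 44 and 48 h, against 14.3%, 9.01% and 7.75% of all genes, and 2 at 48 h without replicate 1. Early waterlogging against 28 h alone called 7 members higher, against 10.3%, and against 36 h alone 8, against 21.4%. Depth is unknown in TPM and cannot be set against any of these limits.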

Other observations

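Some of these genes also varied widely in unstressed roots. LOC105177138 averaged 728 TPM in EG and 579 TPM in R2G in the control of 44 h, and on the log2 scale its means spanned 3.67 in EG and 3.41 in R2G over the 15 waterlogging times, beside 4.25 in EG and 3.37 in R2G over the 10 control times. LOC105155589 was lowest in the control of 16 h in both genotypes and its means spanned 4.55 in EG and 3.19 in R2G in waterlogging, beside 2.99 in EG and 2.26 in R2G in control. The control span was the larger for 2 members in EG and 1 in R2G. The median control span over the 17 members was 1.42 in EG and 1.05 in R2G, against 0.95 and 0.80 over all tested genes.

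Set against the last control before it, waterlogging at times without a control of its own was at least 1 higher on the log2 scale for 8, 6, 6, 2, 2 and 1 of the 17 members at 10, 14, 18, 22, 28 and 36 h in EG, against 3.84%, 3.95%, 7.25%, 7.04%, 8.26% and 7.53% of all genes. In R2G the counts were 5, 1, 3, 9, 0 and 1, against 4.52%, 3.7%, 5.11%, 6.6%, 2.9% and 5.78%. No test was run on these values because they use controls that entered the rule.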
